A study of Mus musculus with 6 samples.

Results

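Genes of the amino acid transporter families SLC1, SLC3, SLC6, SLC7, SLC36, SLC38 and SLC43 were examined in tumours with and without withdrawal of miR-155. The members are the 56 entries, of 29209 in the authors' deposited table, whose symbol starts with Slc, one of these family numbers, the letter a and a digit. The symbol alone chose them, so the set takes in carriers of taurine, creatine and neurotransmitters, the nucleobase carrier gene Slc43a3, and Slc7a6os, a neighbour of Slc7a6 on the opposite strand that encodes no carrier.

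RNA was sequenced from 3 samples in which the host mice were fed chow containing 2.3 mg doxycycline (DOX) per kg and were harvested after 16 hours of exposure, and from 3 samples without DOX. All 6 samples are subcutaneous tumours in NCr nude mice, a strain that lacks a thymus, grown from injected splenic cells of diseased mir-155LSLtTA mice. The labels describe the DOX group as miR-155 withdrawal and the other as overexpression, and tTA is a transactivator that DOX switches off. The labels do not name the cell type in which the transgene was active. There is no DOX-treated tumour lacking the transgene, so the drug's own effects and those of miR-155 loss cannot be told apart. Tumours were dispersed to single cells and freed of red blood cells before RNA extraction, so host cells may be present, and fewer cells of a type and less RNA per cell cannot be told apart.

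Cells take up amino acids through carriers with overlapping substrates. Several light chains of the SLC7 family reach the plasma membrane only when bound to a heavy chain of the SLC3 family, which carries no substrate itself. Slc3a2 encodes the heavy chain CD98 (4F2hc), partner of the light chains of Slc7a5, Slc7a6, Slc7a7, Slc7a8, Slc7a10 and Slc7a11, and Slc3a1 encodes rBAT, partner of that of Slc7a9. Growing lymphocytes and leukaemic cells depend on leucine and arginine uptake, which also feeds the growth kinase complex mTORC1.

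The study's file holds 1 ratio, 1 unadjusted p-value and 1 adjusted p-value per gene, and no level in any sample, so neither the samples of a group nor the overlap of groups can be shown. All values below are the authors' ratios, given as log2 folds, with the authors' p-values. The sources used here do not say which group is the numerator. The ratios were read as DOX over no DOX, and all directions turn if that reading is wrong. An implied standard error, the absolute log2 fold divided by the normal quantile of the two-sided p, stands in for a measured error and is only approximate.

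The promoters of 3 members are shown first because they hold the same short element while their folds had different signs. The capitals mark TGATGNAA, the core of the element bound by ATF4, the transcription factor of amino acid shortage, on either strand. Both motifs named here were searched on both strands. The windows run from 250 bases before to 50 after an annotated start (RefSeq, build GRCm38.p6).
Slc7a11 promoter, GRCm38.p6, chr3:50443564-50443863, minus strand: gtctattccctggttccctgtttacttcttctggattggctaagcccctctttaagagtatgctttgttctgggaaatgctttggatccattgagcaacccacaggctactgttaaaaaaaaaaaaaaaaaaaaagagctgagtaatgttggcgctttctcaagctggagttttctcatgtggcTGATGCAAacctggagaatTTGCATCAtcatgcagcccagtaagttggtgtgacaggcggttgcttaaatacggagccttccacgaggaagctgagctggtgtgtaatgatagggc
Slc1a4 promoter, GRCm38.p6, chr11:20332664-20332963, minus strand: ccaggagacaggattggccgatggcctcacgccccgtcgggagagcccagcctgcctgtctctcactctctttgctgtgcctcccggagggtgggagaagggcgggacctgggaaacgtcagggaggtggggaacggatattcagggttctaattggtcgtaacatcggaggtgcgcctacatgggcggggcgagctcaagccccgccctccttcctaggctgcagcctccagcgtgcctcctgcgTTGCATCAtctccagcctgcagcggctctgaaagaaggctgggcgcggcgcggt
Slc7a7 promoter, GRCm38.p6, chr14:54417895-54418194, minus strand: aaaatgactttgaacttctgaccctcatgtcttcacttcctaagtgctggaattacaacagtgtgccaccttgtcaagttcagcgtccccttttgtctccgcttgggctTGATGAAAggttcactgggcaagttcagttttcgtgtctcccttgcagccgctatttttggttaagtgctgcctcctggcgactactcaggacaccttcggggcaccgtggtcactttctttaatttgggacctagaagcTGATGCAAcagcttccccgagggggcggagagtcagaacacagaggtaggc
The Slc7a11 window holds the element once on each strand, and the Slc7a7 window holds 2 copies on 1 strand. Of 37 members with a window, 3 (8.11%) held the element, against 4.51% of 27025 genes with a window. The authors' deposited table gives these 3 genes log2 folds of 1.16 for Slc7a11 (adjusted p = 0.0959), -2.02 for Slc1a4 (0.208) and 2.01 for Slc7a7 (0.0112), so carriers of the element stood on both sides of 0. Of the same 37 members, 7 (18.9%) held the E-box CACGTG, a motif that MYC binds, against 8.09% of all genes with a window. Of those 7, Slc1a6, Slc38a5 and Slc6a3 are listed without a value. The other 4 (Slc1a7, Slc36a1, Slc43a1 and Slc7a14) were tested and did not pass at the authors' adjusted p from DESeq, and among them Slc36a1 alone was under 0.05 before adjustment. No member held both motifs. Another 19 members have no window in the table used, Slc7a5 among them. The 37 members have 58 windows between them, and a gene counted if any of its windows held the motif. Windows per gene were not computed over all genes, so no excess of either motif is read from these shares. A match is a description of these letters, not evidence of binding.

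At the authors' adjusted p under 0.05, 5 of the 38 members with a p-value passed in the authors' deposited table. Slc7a1 and Slc7a5 fell, and Slc38a6, Slc7a7 and Slc43a2 rose. That is 13.2% of the members tested, close to the 11.3% of 18543 tested entries that passed (5.72% higher and 5.61% lower), so the count of calls does not set the group apart. In the authors' deposited table, 15 of the 38, or 39.5%, were listed with an unadjusted p under 0.05, against 22.4% of all tested entries. In the authors' deposited table, 11.8% of 203 tested solute carriers outside these families passed the threshold, and 17.2% reached the unadjusted level. The median log2 fold of the 32 members with a finite ratio was 0.56, against 0.17 over all tested entries with a finite ratio and 0.12 over the other solute carriers in the authors' deposited table. Folds of members ran from -3.39 for Slc7a5 to 3.78 for Slc6a19 in the authors' deposited table, with values on both sides of 0 in each family that had more than 2 finite ratios except SLC38.

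**Figure D1:**
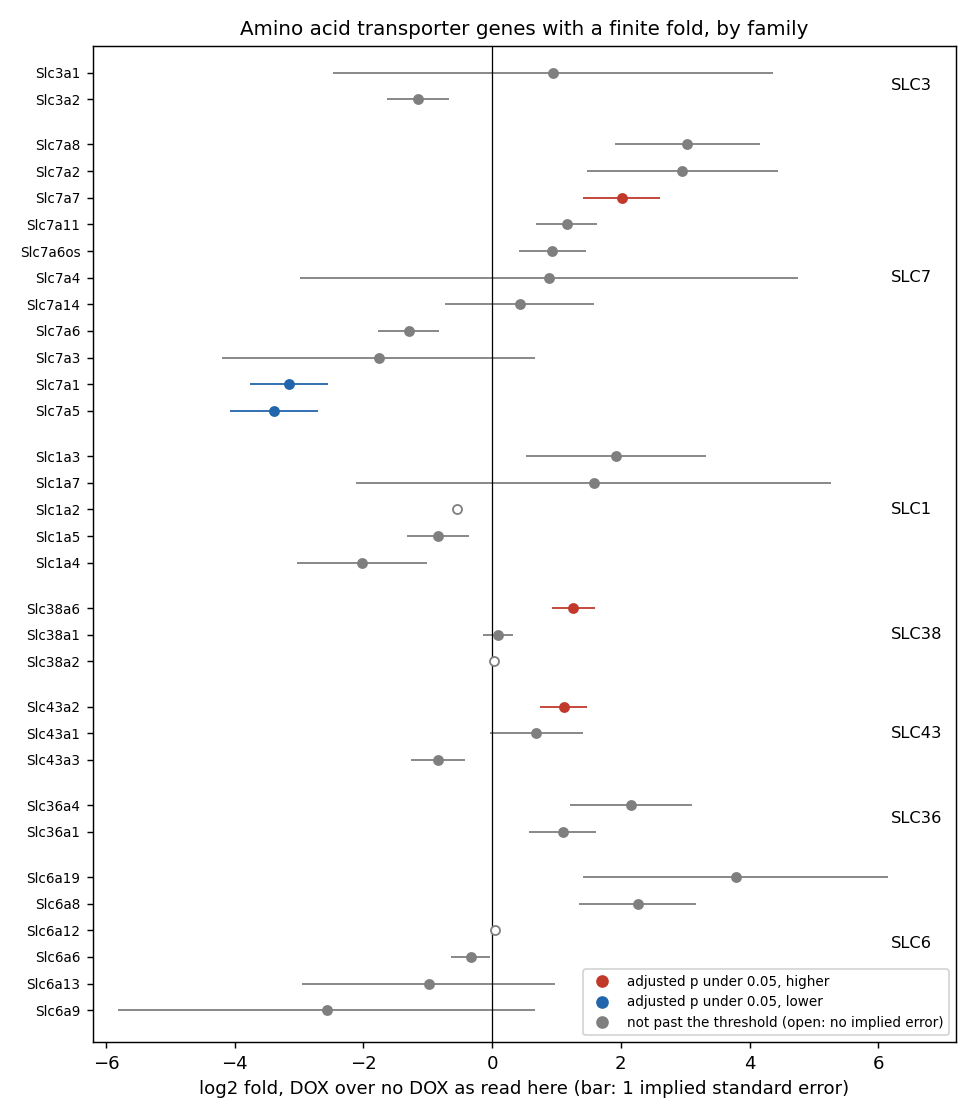
Each point is the log2 fold (x axis) of 1 of the 32 members with a finite ratio, grouped by family, with bars of 1 implied standard error where one could be computed. Slc7a1 (-3.15) and Slc7a5 (-3.39) lie far left, while Slc7a7 (2.01), Slc38a6 (1.26) and Slc43a2 (1.11) are the members called higher.

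Slc3a2, the CD98 heavy chain, had a log2 fold of -1.15 with an implied standard error of 0.47 in the authors' deposited table, a 2.22-fold lower level in DOX that missed the threshold (adjusted p = 0.101). Its light chains had folds of both signs. Slc7a5, the light chain LAT1 that exchanges leucine and other large neutral amino acids, fell 10.5-fold in the authors' deposited table (-3.39, implied standard error 0.68, adjusted p = 4.96e-05). It was the lowest of all members with a finite ratio. Slc7a6, the light chain y+LAT2 that exchanges cationic for neutral amino acids, stood at -1.30 in the authors' deposited table, just outside the threshold (adjusted p = 0.0535).

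The other measured partners of CD98 had positive folds. Slc7a7, the light chain y+LAT1, whose loss in humans causes lysinuric protein intolerance, rose 4.03-fold in the authors' deposited table (2.01, implied standard error 0.60, adjusted p = 0.0112). Slc7a8, the light chain LAT2 for small and large neutral amino acids, had 3.03 in the authors' deposited table, with a wide implied standard error of 1.12 (adjusted p = 0.0576). Slc7a11, the cystine and glutamate exchanger xCT, had 1.16 in the authors' deposited table, a 2.23-fold higher level with an implied standard error of 0.47 (adjusted p = 0.0959). Slc7a10, a small neutral amino acid exchanger of brain and fat, is listed without a value.

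Of the exchanger genes Slc3a2, Slc7a5 and Slc7a11, therefore, 1 of 3 passed, and xCT stood on the opposite side of 0 from its heavy chain. Their 95% ranges implied by fold and p were -2.08 to -0.22 for Slc3a2, -4.72 to -2.06 for Slc7a5 and 0.23 to 2.09 for Slc7a11, computed from the authors' deposited table. All 3 had an unadjusted p under 0.05, against 12 of the other 35 tested members and 22.4% of all tested entries. The 3 genes were chosen with earlier results of these data known, so nothing is read from that count. The difference between 2 genes' folds could not be tested without values per sample, and no such difference is claimed. In the SLC3 and SLC7 families together, 3 of 14 tested entries passed (1 higher, 2 lower), with a median log2 fold of 0.88 over 13 finite ratios. In the other 5 families 2 of 24 passed, both higher, with a median of 0.09 over 19 finite ratios. These are shares of 21.4% and 8.33%, on either side of the 11.3% of all tested entries and each resting on 3 calls or fewer, and no difference between the families is read from them. The second heavy chain gene, Slc3a1, had 0.95 with an implied standard error of 3.42 in the authors' deposited table (adjusted p = 1), and its partner Slc7a9 is listed without a value, as is Slc7a13.

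**Figure D2:**
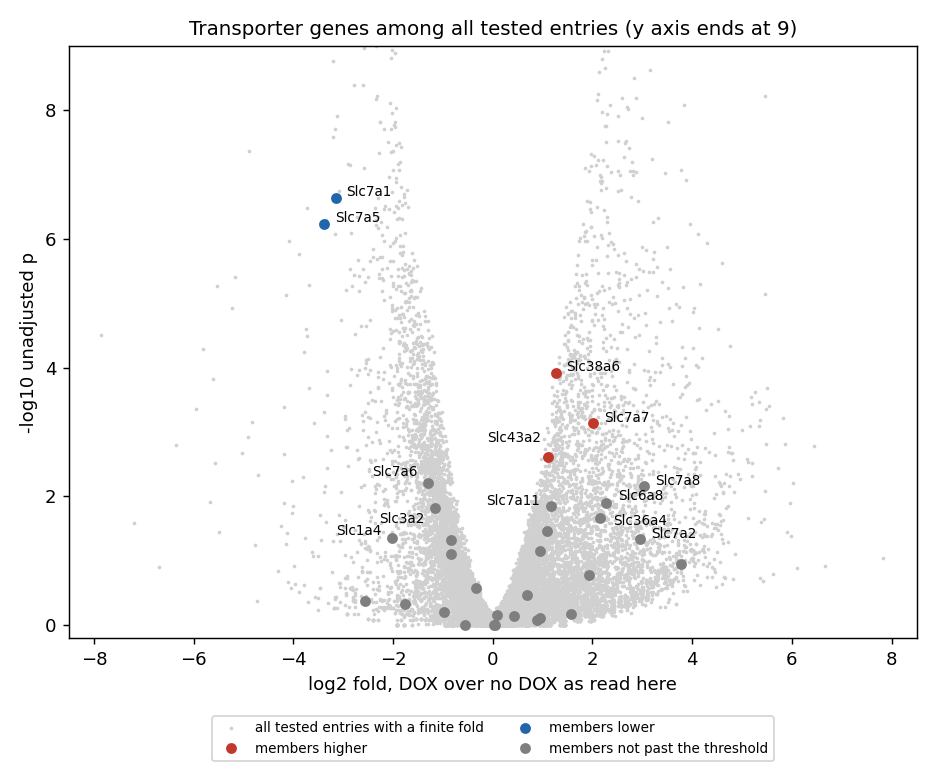
The log2 fold (x axis) of every tested entry with a finite ratio is plotted against -log10 of the unadjusted p (y axis, which ends at 9, so entries beyond it are not drawn). Members are the large points: Slc7a1 and Slc7a5 stand high on the left, and Slc38a6, Slc7a7 and Slc43a2 are called on the right.

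The cationic amino acid carriers of SLC7 need no heavy chain. Slc7a1, which encodes CAT-1, the widespread carrier for arginine and lysine, had the smallest p of all members and fell 8.90-fold in the authors' deposited table (-3.15, implied standard error 0.61, adjusted p = 2.28e-05). By unadjusted p it ranked 184 of 18543 tested entries, and Slc7a5 ranked 217. Slc7a2, the CAT-2 carrier that activated mouse macrophages use to import arginine, had a fold of the opposite sign in the authors' deposited table, 2.95 with an implied standard error of 1.48 (adjusted p = 0.214). Slc7a3, the CAT-3 carrier, stood at -1.76 in the authors' deposited table, but its implied standard error of 2.43 leaves its direction undetermined (adjusted p = 0.841). Slc7a4 (0.88) and Slc7a14 (0.43) had implied standard errors of 3.87 and 1.16 in the authors' deposited table, and neither change was detectable. Outside that cationic group, Slc7a15 is listed with a ratio of Inf and an adjusted p of 1. Slc7a12, also outside it, is listed without a value. Slc7a6os, the opposite-strand neighbour, had 0.94 (adjusted p = 0.280) in the authors' deposited table, while Slc7a6 had -1.30. The sources used here do not say whether reads were counted by strand.

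In the SLC1 family, which holds neutral amino acid exchangers and glutamate carriers, 0 of 5 tested members passed at the authors' adjusted p from DESeq. Over all tested entries 11.3% passed, so 0 of 5 does not set the family apart. Of the 5, 1 had an unadjusted p under 0.05, against 22.4% of all tested entries. That was Slc1a4, the exchanger ASCT1 for alanine, serine and cysteine, at -2.02 with an implied standard error of 1.01 (adjusted p = 0.208) in the authors' deposited table. Slc1a5, the glutamine exchanger ASCT2, had -0.85 with an implied standard error of 0.48 (0.302) in the authors' deposited table, and its implied 95% range of -1.79 to 0.10 does not fix a direction. The glutamate carrier genes Slc1a3 (1.92) and Slc1a7 (1.58) had implied standard errors of 1.39 and 3.70 in the authors' deposited table. Slc1a2 had -0.55 (adjusted p = 1) in the authors' deposited table, and Slc1a1 and Slc1a6 are listed without a value.

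The SLC38 family couples sodium to the uptake of glutamine and other small neutral amino acids. Slc38a6, a less studied member, rose 2.40-fold in the authors' deposited table (1.26, implied standard error 0.33, adjusted p = 0.00301), the smallest adjusted p among members that rose. Slc38a1 and Slc38a2, the general glutamine and alanine carriers SNAT1 and SNAT2, had 0.09 (adjusted p = 0.992) and 0.03 (1) in the authors' deposited table. The implied standard error of Slc38a1 was 0.23, the smallest of all members, with an implied 95% range of -0.36 to 0.54. An implied error can be far too small where a fold is near 0 and p is large, as for Ivd (-0.0026, implied standard error 0.0081). No bound on a change of Slc38a1 is therefore read from its range. Relative to the median of all tested entries Slc38a1 and Slc38a2 would stand slightly below 0, at -0.08 and -0.14. Slc38a3, Slc38a4 and Slc38a5 are listed without a value.

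The SLC43 and SLC36 families move amino acids without sodium. Slc43a2, the LAT4 carrier that lets leucine and other large neutral amino acids move down their gradient, rose 2.16-fold in the authors' deposited table (1.11, implied standard error 0.37, adjusted p = 0.0271). Its relative Slc43a1, the LAT3 carrier, had 0.69 with an implied standard error of 0.72 (0.718) in the authors' deposited table. Slc43a3, which carries purine nucleobases, had -0.84 with an implied standard error of 0.42 (0.218) in the authors' deposited table. In SLC36, Slc36a4 and Slc36a1, the latter a proton-coupled carrier known at the lysosome, had 2.16 (implied standard error 0.94, adjusted p = 0.129) and 1.10 (0.52, 0.177) in the authors' deposited table. Neither passed, though both were under 0.05 before adjustment. Slc36a2 is listed with a ratio of Inf (0.959) and Slc36a3 with a ratio of 0 (1).

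The SLC6 family moves neurotransmitters, creatine, taurine and some amino acids with sodium and chloride, mostly in nerve cells, kidney and gut, and 9 of its 18 entries had no value. None of the other 9 passed at the authors' adjusted p from DESeq, which beside the 11.3% of all tested entries does not set the family apart. Of the 9, 1 had an unadjusted p under 0.05, against 22.4% of all tested entries. That was the creatine carrier Slc6a8 at 2.26 with an implied standard error of 0.91 (adjusted p = 0.0892) in the authors' deposited table. The taurine carrier Slc6a6 had -0.33 with a narrow implied standard error of 0.30 (0.627) in the authors' deposited table. Slc6a19, a neutral amino acid carrier of gut and kidney, had the largest finite fold of any member, 3.78, and yet an implied standard error of 2.38 (0.374) in the authors' deposited table. The glycine carrier Slc6a9 (-2.57) and the GABA carriers Slc6a13 (-0.99) and Slc6a12 (0.05) had adjusted p-values of 0.805, 0.948 and 1 in the authors' deposited table. Slc6a15 and Slc6a20 are listed with a ratio of Inf, each with an adjusted p of 1. The entries without a value were the carriers of noradrenaline (Slc6a2), dopamine (Slc6a3), serotonin (Slc6a4), glycine (Slc6a5), proline (Slc6a7) and GABA (Slc6a11), together with Slc6a14, Slc6a17 and Slc6a18.

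Precision differed widely between members. The implied standard error had a median of 0.72 over 29 members and of 0.61 over 13930 entries of the table, and 12 of the 29 members lay above 1. Of the tested members, 8 share their exact ratio and p with at least 1 other entry, as Slc6a15 and Slc6a20 share theirs with 377 others each. No read counts stand in the table, so the depth behind a value is unknown.

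Because the transgene makes a microRNA, 3' UTRs of members were searched for matches to its seed, bases 2 to 8. The mature miR-155-5p (RefSeq, GRCm38.p6, chr16:84714143-84714165, plus strand) is printed with its seed in capitals, and the sites of 4 members with a finite ratio with the match in capitals. Sites were read from GENCODE M21 transcripts.
mmu-miR-155-5p: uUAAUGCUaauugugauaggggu
Slc7a1: tggctcccaAGCATTAAggaatctt
Slc38a6: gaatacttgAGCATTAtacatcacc
Slc36a4: caccgtgcaAGCATTAgatagttcc
Slc38a2: ttatagagcAGCATTAAtccattaa
Of 37 tested members with an annotated 3' UTR, 5 (13.5%) held AGCATTA or GCATTAA, against 13.2% of 11767 tested entries with one and 12.6% of all 21028 annotated genes. Folds of the 4 printed genes lay on both sides of 0 in the authors' deposited table. The called genes among them went opposite ways, with Slc7a1 at -3.15 and Slc38a6 at 1.26, while Slc36a4 had 2.16 and Slc38a2 0.03 in the authors' deposited table. Both of these genes have a second entry under an older name in the authors' deposited table, for Slc36a4 with a ratio of 0 that passed (PAT4, adjusted p = 0.0480) and for Slc38a2 at 2.01 (mKIAA1382, 0.503), so the direction of Slc36a4 differs between its entries. Slc7a5, Slc7a7 and Slc43a2, the other called members, held no match. The longest coding transcripts of called members ran from 2278 bases for Slc7a7 to 7179 bases for Slc7a1. The part of transcript length in the folds was not tested.

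Genes that use or sense the transported amino acids were described from 6 lists, 5 of them related to metabolism or signalling and 1 of carriers outside the families. For glutamine and glutamate use, 6 of 18 tested genes fell and 0 rose, and the median was -1.13, in the authors' deposited table. Ppat (-2.59) and Cad (-2.71), which start purine and pyrimidine synthesis from glutamine, Aldh18a1 (-2.25), the first enzyme of proline synthesis, and Ctps (-2.18), which makes cytidine triphosphate, had the smallest adjusted p in the list, per the authors' deposited table. For branched-chain amino acid breakdown, 2 of 13 fell and 0 rose, near the 11.3% of all tested entries, and the median was -0.42, in the authors' deposited table. The called genes were aminotransferases of the amino acids that Slc7a5 imports, Bcat1 (-2.62, adjusted p = 0.00922) and Bcat2 (-1.55, 0.0163), in the authors' deposited table.

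For cystine and glutathione use, 3 of 18 fell and 0 rose, beside the 11.3% of all tested entries that passed. The median was -0.82 in the authors' deposited table. The fallen genes were the thioredoxin reductase gene Txnrd1 (-1.82, adjusted p = 0.000123), the peroxidase gene Gpx1 (-1.31, 0.00515) and the thioredoxin gene Txn1 (-1.14, 0.0196) in the authors' deposited table. Gclc, whose product starts glutathione synthesis from the cysteine that xCT supplies, had 1.46 (0.0785) in the authors' deposited table and did not pass. Carriers outside the families had 1 of 18 lower and 0 higher, Slc15a3 (-1.27, 0.0143), a lysosomal peptide carrier, and a median of -0.10, in the authors' deposited table.

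For the integrated stress response, 2 of 21 rose and 0 fell, and the median was -0.05, in the authors' deposited table. The risen genes encode kinases upstream of ATF4, Eif2ak2 (1.46, adjusted p = 0.0185) and Eif2ak3 (1.24, 0.0271), in the authors' deposited table. Atf4 itself, whose product can bind the element printed above, had -0.28 with an implied standard error of 0.38 (0.826), and its target Asns -2.47 with 1.35 (0.275), in the authors' deposited table. For amino acid sensing to mTORC1, 1 of 32 rose and 0 fell, and the median was -0.28, in the authors' deposited table. That gene was Fnip1 (1.30, 0.0446), a partner of folliculin, in the authors' deposited table. Against the 11.3% of all tested entries that passed, the share passing was higher for glutamine use (6 of 18) and lower for mTORC1 sensing (1 of 32). The counts for cystine and glutathione use, carriers outside the families and the integrated stress response each rest on 3 calls or fewer. Nothing about these lists is read from those counts.

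**Figure D3:**
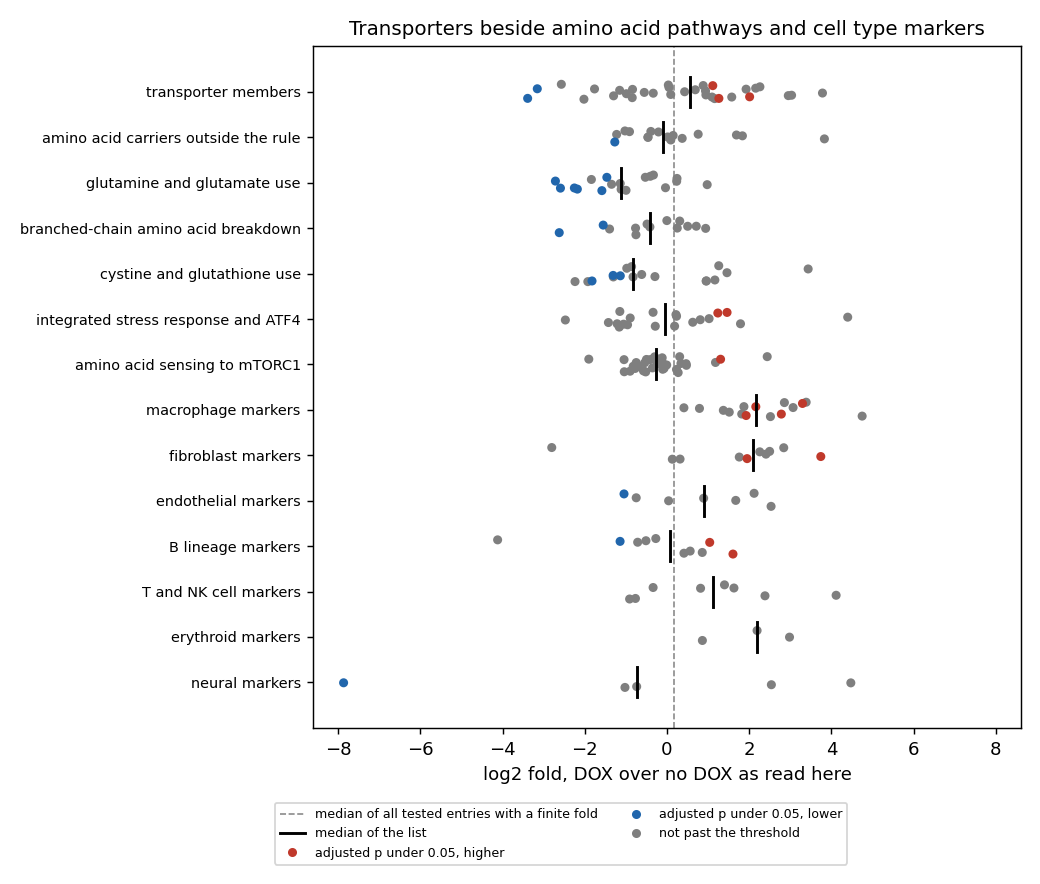
Each point is the log2 fold (x axis) of 1 gene with a finite ratio in the transporter set, the amino acid lists and the cell type marker lists (rows), with list medians as black bars and the median of all tested entries, 0.17, as a dashed line. Glutamine genes (median -1.13) lie to the left, and macrophage markers (2.16) and fibroblast markers (2.10) to the right.

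Of markers of other cells, most in each list did not pass, and the counts stand beside the 11.3% of all tested entries that did. Counts of ratios above 1 stand beside 11007 of the 18543 tested entries with such a ratio. All 15 macrophage markers tested had a ratio above 1 and 4 rose (Csf1r, Mertk, Ccr2 and Apoe), with folds from 0.41 to 4.75 and a median of 2.16, in the authors' deposited table. Slc7a7 and Slc7a2, both known from macrophages, stood at 2.01 and 2.95 in the authors' deposited table, where Slc7a2 did not pass. The range of the markers is too wide to tie a gene to them, and the part of macrophages in these 2 folds was not tested. Of 10 fibroblast markers 9 had a ratio above 1 and 2 rose (median 2.10), and of 7 endothelial markers 0 rose and 1 fell (0.89), in the authors' deposited table. Of 10 B lineage markers 2 rose and 1 fell, with 5 ratios on each side of 1 and a median of 0.07, in the authors' deposited table. Of 9 T and NK cell markers and 4 erythroid markers 0 passed at the authors' adjusted p from DESeq, with 1 gene of each list under 0.05 before adjustment, and their medians were 1.11 and 2.19 in the authors' deposited table. Of 6 tested neural markers 1 fell, with a median of -0.74 in the authors' deposited table. Of the markers that passed, 4 macrophage, 2 fibroblast and 2 B lineage markers rose, and 1 endothelial, 1 B lineage and 1 neural marker fell. The part of cell make-up in the lower folds of Slc7a1 and Slc7a5 was not tested. Without levels, the table cannot show whether the markers of any of these cell types were high or near 0.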

How the data were processed

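The submitters' processing notes name the software RSEM and DESeq and build mm9 of the mouse genome, without versions. The deposited file is the authors' table of 1 comparison, with a linear fold ratio, an unadjusted p-value and an adjusted p-value per entry, per the file headers. The deposited adjusted p-values differ from a Benjamini-Hochberg adjustment over the 18543 tested entries by at most 2.09e-06. No value per sample is used, so depth is unknown and nothing was refitted. The labels do not say that samples came from separate animals, so the p-values reflect sample-to-sample spread that could be technical.

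Log2 folds were computed from the ratio with Python 3.11.15, pandas 2.3.3 and SciPy 1.17.1. Ratios of 0 (579 entries) and Inf (2180) got no fold. Implied standard errors were computed for p up to 0.9. All members past the threshold, all SLC3 and SLC7 members and each other family's leading member are named, and of each list up to 4 called genes. Of the members, 1 is not reported here. Members, lists and rules were chosen with earlier results of these data known. List genes were matched by symbol, RefSeq accession or unique synonym. Sequence annotation is GRCm38 and not mm9, so no position of a table entry is given. Alternatives were other thresholds, Bonferroni, finite ratios alone and other choices of members. The functions were tested on simulated data.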

Additional observations from a re-analysis of the deposited data

How the results depend on the processing

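At an adjusted p under 0.01, under 0.1 and by Bonferroni over all tested entries, 3, 9 and 2 members passed in place of 5, thresholds being stricter or looser by construction. The shares of all tested entries passing at these and the following alternatives were not computed. Nothing that sets the members apart is therefore read from these counts. With p adjusted again over finite ratios, 7 passed, Slc7a6 and Slc7a8 being added. With the table's entries of these families under other names, a choice made after seeing the data, 8 entries passed. Of the added calls, slc43a2 is a second entry of the already called Slc43a2, and PAT4 is one of Slc36a4 with a ratio of 0. Bonferroni lost Slc38a6, Slc7a7 and Slc43a2 and kept Slc7a1 and Slc7a5. By family, at 0.1, 1 SLC6 and 6 SLC7 members passed in place of 0 and 3, and at 0.01 the count in SLC43 was 0 in place of 1 and in SLC7 2 in place of 3, Slc7a7, its only member called higher, being lost. The members' median log2 fold of 0.56 became 0.91 with ratios of 0 and Inf at the table's extreme finite folds, 1.11 with unadjusted p under 0.05 only, 0.43 without Slc7a6os, 0.39 relative to the table's median and 0.69 with implied standard errors up to 1, the last chosen after seeing the data. It stayed above 0 in each. The median of all tested entries, 0.17, is also above 0 and was not recomputed under these alternatives. Whether the members' distance from the table's median is stable was therefore not tested. The deposited log2 column was not used as an alternative, since cells with a ratio of 0 are not numbers there. No paired analysis was possible because the file holds no value per sample, and for the same reason no sample could be left out.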

Other observations

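Genes of these families also stand in the authors' deposited table under names that the symbol rule does not reach, 10 entries in all, 8 with a p-value. The entry 9130023D20Rik, an older name of Slc38a9, the lysosomal arginine sensor that acts on mTORC1, rose in the authors' deposited table (1.94, implied standard error 0.48, adjusted p = 0.00169). A second entry of Slc43a2, written slc43a2 and matched by its RefSeq accession, also rose in the authors' deposited table, by 2.60 (0.0186), beside 1.11 for the first.

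The entry PAT4, an older name of Slc36a4, is listed with a ratio of 0 and passed (adjusted p = 0.0480) in the authors' deposited table, while Slc36a4 itself had 2.16 (0.129), so entries of 1 gene stood on opposite sides. The entry mKIAA1382, an older name of Slc38a2, had 2.01 (0.503) in the authors' deposited table, beside 0.03 for Slc38a2. Names were matched through RefSeq synonyms that point to a single gene, and the sources used here do not say how reads were divided between such entries. The older names of Slc38a8, Slc38a10 and Slc6a20a had -1.15, -0.21 and -0.55 in the authors' deposited table, and none passed. The entry 1700039E15Rik, matched to Slc6a21, is listed with a ratio of 0, and those matched to Slc38a11 and Slc6a17 have no value.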
